A study of Mus musculus with 384 samples.

Results

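The 10 genes described here encode the facilitative glucose transporter GLUT1 (Slc2a1), 2 hexokinases (Hk1, Hk2), liver-type phosphofructokinase (Pfkl), aldolase A (Aldoa), glyceraldehyde-3-phosphate dehydrogenase (Gapdh), phosphoglycerate kinase 1 (Pgk1), enolase 1 (Eno1), pyruvate kinase M (Pkm) and lactate dehydrogenase A (Ldha). They were chosen by symbol, and all 10 of 10 were among the 50556 gene symbols of the count table, where 30597 symbols were seen at least once. Glycolysis splits glucose into pyruvate in the cytosol, and lactate dehydrogenase turns pyruvate into lactate while restoring the cofactor that Gapdh uses. Activated T cells are known to raise glucose import and glycolysis, while regulatory T (Treg) cells, a CD4 lineage defined by the factor Foxp3 that holds back immune responses, are known to rely on it less and to use it for growth and migration.

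The cells were Treg cells sorted from mouse ear skin after topical 5% imiquimod or vehicle control, with sorting on day 3. Imiquimod is an agonist of Toll-like receptors that causes a psoriasis-like inflammation of mouse skin. The design text names 2 mice per treatment and gives no strain or age, and no label ties a plate to a mouse. The table held 384 wells on 4 plates, with 174 imiquimod and 174 vehicle wells of single cells, 16 wells of 10 cells and 20 wells with no cell.

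A single-cell well was kept where it had at least 500 genes and at least 10000 counts, which left 38 and 44 cells on the imiquimod plates and 62 and 58 cells on the vehicle plates, 202 in all. Each kept cell held 47481 to 5946386 counts, and the median number of genes per cell was 975 and 1093 on the imiquimod plates, against 1040 and 1503 on the vehicle plates. A Treg marker (Foxp3, Il2ra, Ikzf2, Ctla4, Icos or Tnfrsf4) had a count in 87.1% of kept cells and a T cell marker in 91.1%. Markers of other cells also had counts. Erythroid globin genes were detected in 55.3% and 45.5% of cells on the imiquimod plates, against 3.23% and 22.4% on the vehicle plates. Mast cell markers were detected in 5.26% and 4.55% of cells on the imiquimod plates, against 29.0% and 25.9% on the vehicle plates, with Cma1 at 0. A macrophage marker (Lyz2, Adgre1, Csf1r or C1qa) had a count in 33.2% of kept cells. By plate this was 21.1% and 40.9% for imiquimod, against 29.0% and 39.7% for vehicle. Within these sets, C1qa was at 0 in all kept cells, as was Krt1 of the keratinocyte markers. Endothelial markers had counts in 14.4% of kept cells, neutrophil markers in 10.9% and fibroblast markers in 9.41%. Dendritic cell markers had counts in 7.43%, keratinocyte markers in 1.98% and B cell markers in 1.49%. The part of these other transcripts in the results below was not tested, except where values without such cells are given.

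The promoters of 3 members are shown as a description. Whether they bear on the detection of members in the same cells was not tested. RefSeq promoter windows of GRCm38.p6, each from 250 bases before to 50 bases after an annotated start, matched all 10 genes with 17 windows. Capitals mark ACGTG, the core of the element bound by hypoxia-inducible factor (HIF), which is known to activate glycolytic genes. It was searched on both strands, so that it reads CACGT where it lies on the other strand, and the palindrome CACGTG counts once on each strand. The sequences are given 5′ to 3′ on the gene's strand.
Ldha, chr7:46845554-46845853, plus strand: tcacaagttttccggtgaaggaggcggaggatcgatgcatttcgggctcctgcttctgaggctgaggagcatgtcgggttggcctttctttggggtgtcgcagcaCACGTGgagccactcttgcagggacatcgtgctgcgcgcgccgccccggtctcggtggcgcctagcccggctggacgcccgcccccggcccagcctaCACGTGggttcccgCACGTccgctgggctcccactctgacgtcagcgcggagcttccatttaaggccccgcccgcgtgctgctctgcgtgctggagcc
Pgk1, chrX:106186850-106187149, plus strand: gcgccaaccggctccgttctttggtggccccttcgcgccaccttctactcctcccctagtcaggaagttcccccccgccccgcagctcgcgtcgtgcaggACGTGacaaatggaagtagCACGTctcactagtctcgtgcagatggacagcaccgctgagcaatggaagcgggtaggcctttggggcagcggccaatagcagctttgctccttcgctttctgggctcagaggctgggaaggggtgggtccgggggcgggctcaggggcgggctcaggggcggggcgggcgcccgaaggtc
Aldoa, chr7:126799205-126799504, minus strand: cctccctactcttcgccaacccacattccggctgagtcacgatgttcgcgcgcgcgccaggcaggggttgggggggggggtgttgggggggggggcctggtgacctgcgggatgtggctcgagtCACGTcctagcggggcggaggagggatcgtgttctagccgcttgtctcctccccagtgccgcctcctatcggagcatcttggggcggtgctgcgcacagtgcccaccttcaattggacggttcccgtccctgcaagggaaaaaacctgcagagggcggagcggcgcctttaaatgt

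The windows shown held 5 matches for Ldha, 2 for Pgk1 and 1 for Aldoa. For Ldha and Aldoa a window with a match was shown, and each of these genes also had a window with 0 matches. At least 1 match was present in 9 of the 17 windows, against 19.6% of 32851 windows of all genes. These windows belonged to 8 of the 10 genes, where a gene with several windows needed a match in only 1. The Aldoa window shown overlaps another Aldoa window that holds the same site, so that site counts in both. The related form GCGTG was present in 9 of the 17 windows and 6 of the genes, against 32.4% of all windows. Both percentages are shares of windows and not of genes. Pfkl and Eno1 had no ACGTG match in their windows. These matches describe letters in a window of an older build than the one used for mapping, and do not show binding.

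In kept cells, Pkm and Ldha were detected most often. Pkm, the enzyme that makes pyruvate, had a count in 90 of 202 cells (44.6%, exact 95% interval 37.6 to 51.7%), and Ldha in 79 (39.1%, 32.3 to 46.2%). Aldoa, which splits fructose-1,6-bisphosphate, was detected in 67 cells (33.2%), Gapdh in 61 (30.2%) and Eno1, which makes phosphoenolpyruvate, in 50 (24.8%). The other 5 members were rarer. Hk1 and Hk2, which trap glucose in the cell, were detected in 29 and 23 cells. Pgk1, which forms ATP from 1,3-bisphosphoglycerate, was detected in 20, Pfkl, of the committed step, in 14, and the transporter Slc2a1 in 9 (4.46%, 2.06 to 8.29%). Intervals on counts and cells cover counting error only, since the labels mention no molecular identifiers and PCR copies of 1 molecule count more than once.

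Levels within a cell are given as CPM, the counts of a gene scaled to the well's total. They were spread widely among the cells with a count. Of 90 cells with Pkm, 55 were above 1000 CPM and 16 below 10 CPM, with 19 in between. Ldha had 43 cells above 1000 CPM, 17 below 10 and 19 in between, Aldoa 33, 21 and 13, and Eno1 31, 7 and 12. Gapdh was mostly at low levels, with 52 of its 61 cells below 10 CPM and 1 above 1000. The highest cell reached 29223 CPM of Pkm, on imiquimod plate 1, and the highest sum of the 10 genes in a cell was 37245 CPM, or 3.72% of the well, on vehicle plate 1.

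**Figure D1:**
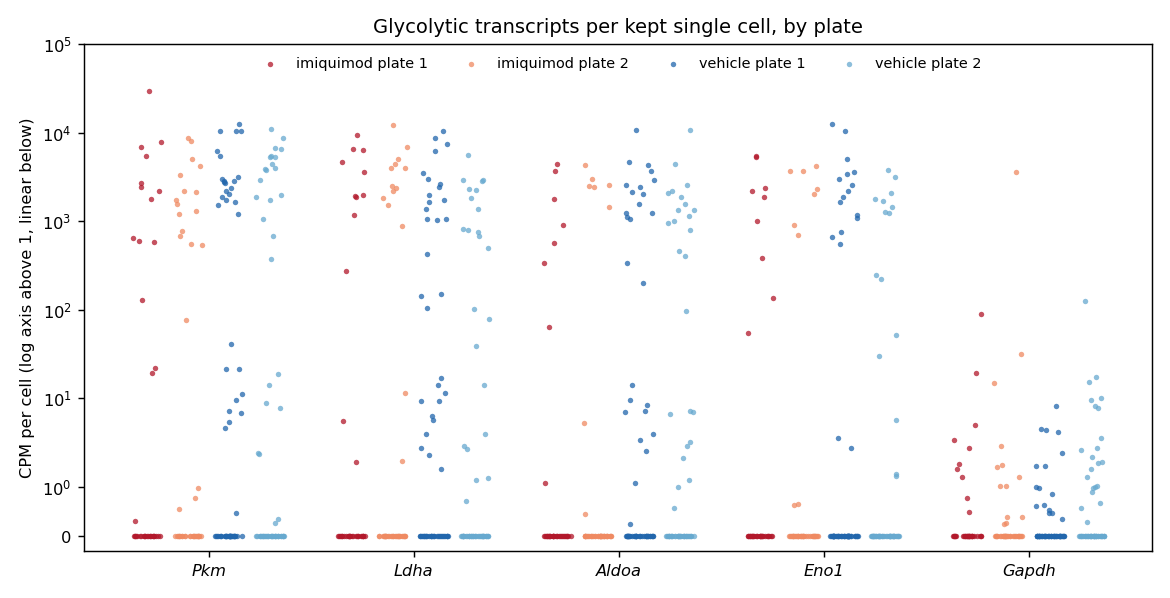
CPM of 5 genes in each kept cell, with 1 point per cell (38 and 44 imiquimod cells in red shades, left, and 62 and 58 vehicle cells in blue shades, right); the axis is logarithmic above 1 and linear below, and points are spread sideways for sight only. Pkm, Ldha, Aldoa and Eno1 have 55, 43, 33 and 31 cells above 1000 CPM, with others spread below, while Gapdh lies mostly below 10 CPM.

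Per kilobase of transcript, levels in the plate sums separated 4 genes from the other 6. CPM of the plate sum, without further scaling, per kb of the longest protein-coding GENCODE M21 transcript averaged 682 ± 139 for Pkm, 678 ± 203 for Ldha, 491 ± 182 for Aldoa and 343 ± 94.8 for Eno1 (SD, n = 4 plates). Each of these ranges over plates overlapped that of the next gene in order. The lowest plate of Eno1, at 258 CPM per kb, lay above the highest plate of Pgk1, at 94.98. Pgk1 averaged 64.5 CPM per kb, Hk1 33.0, Pfkl 18.7, Gapdh 12.3, Slc2a1 9.06 and Hk2 2.56, and neighbours in this order overlapped.

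Gapdh, a transcript usually treated as abundant in every cell, held 6720 counts over the kept cells, against 585677 for Pkm. Of its 50-base windows, 82.5% were also found in transcripts of 222 other genes, 213 of them pseudogenes. The count table listed 204 of these genes, which together held 40231 counts in kept cells. Eno1 shared 72.2% of its windows and Pgk1 68.0%, while Pkm shared 34.4%, Ldha 16.6% and Aldoa 13.5%. Hk1 shared 2.55%, with the antisense gene Hk1os, Slc2a1 1.74%, Pfkl 0.054% and Hk2 0%. How reads matching several genes were counted is not given in the sources used here, so the levels of Gapdh, Eno1, Pgk1 and Pkm are uncertain, and the part of shared sequence in the low Gapdh counts was not tested.

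**Figure D2:**
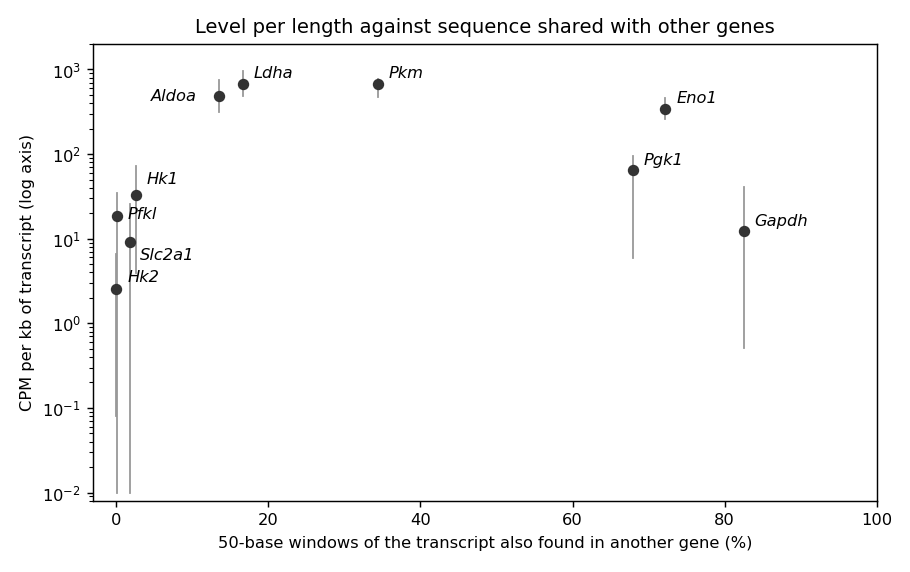
Level per length (mean of 4 plates, CPM per kb, log axis) against the share of 50-base transcript windows also found in another gene (%), with 1 point per gene and lines from the lowest to the highest plate; lines that reach below 0.01 end there. Gapdh, at 82.5% shared, had 12.3 CPM per kb, while Eno1, at 72.2%, had 343.

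Between treatments, no member passed the test. Counts of the kept cells were summed per plate and compared with edgeR's quasi-likelihood test, with Benjamini-Hochberg adjustment over 14462 genes, of which 0 were called (0%); 1669 had an unadjusted p under 0.05, among them 1 member, Slc2a1. The smallest adjusted p over all genes was 0.420. DESeq2 on the same sums called 3740 genes (25.9%), 968 higher and 2772 lower, and 3 of the 10 members, Hk1, Ldha and Slc2a1. With 2 plates a treatment, p-values measure the spread between plates, and differences between whole plates and the treatments cannot be told apart. In sums, fewer cells with a transcript and less RNA per cell cannot be told apart either.

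Slc2a1, the main glucose transporter of activated T cells, was at or near 0 in imiquimod sums. It had 2 and 0 counts on the imiquimod plates, against 3055 and 8379 on the vehicle plates. The ratio over all counts was 0.000199 (95% interval 2.42e-05 to 0.000721, counting error only). On each vehicle plate 1 cell held nearly all of them, 3054 of 3055 counts on plate 1 and 8350 of 8379 on plate 2. The edgeR quasi-likelihood adjusted p was 0.426 and that of DESeq2 5.52e-05. Leaving out the highest cell of each plate left too few counts for a test.

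Hk1, the housekeeping hexokinase, had 263 and 327 CPM in imiquimod sums, against 15.3 and 44.2 CPM in vehicle sums (CPM here and below scaled by TMM, edgeR's trimmed mean of M values). The plates of the treatments did not overlap, and the log2 fold change of imiquimod over vehicle was 3.31 ± 1.78 (SE; edgeR quasi-likelihood adjusted p = 0.467; DESeq2 3.75 ± 1.02, adjusted p = 0.0018). Single cells weighed heavily, since 48.6% and 83.6% of the counts on the imiquimod plates came from 1 cell each. Without the highest cell of every plate the log2 fold change was 2.98 ± 2.39. In cells with a count of a T or Treg marker, a setting chosen after seeing the data, it was 2.42 ± 2.26. Hk2, the inducible hexokinase, had 7.62 and 15.3 CPM in imiquimod sums, against 0.405 and 28.4 CPM in vehicle sums. These ranges overlapped, with a log2 fold change of -0.33 ± 3.33 (edgeR quasi-likelihood adjusted p = 0.987) that was 0.065 with DESeq2's size factors.

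Pfkl had 0.0214 and 136.7 CPM in imiquimod sums, against 68.4 and 59.6 CPM in vehicle sums. Both vehicle plates lay between the 2 imiquimod plates, and single cells held 96.9% of the counts on imiquimod plate 2 and 6751 of the 6753 counts on vehicle plate 1. Its log2 fold change was 0.10 ± 2.86 (edgeR quasi-likelihood adjusted p = 0.996), and -1.55 ± 2.63 with each cell thinned to 100000 counts. Aldoa had 957 and 516 CPM in imiquimod sums, against 1055 and 579 CPM in vehicle sums. The ranges overlapped, with a log2 fold change of -0.15 ± 0.79 (edgeR quasi-likelihood adjusted p = 0.974), which was 0.37 with DESeq2's size factors and -1.44 ± 0.56 with limma, fitted to log2(CPM + 1) averaged over cells.

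Gapdh had 8.60 and 61.2 CPM in imiquimod sums, against 0.668 and 4.30 CPM in vehicle sums. The plates did not overlap, but 88.3% and 96.5% of its counts on the imiquimod plates came from 1 cell each, and the log2 fold change of 3.81 ± 3.60 (edgeR quasi-likelihood adjusted p = 0.750) was 0.99 ± 2.25 without the highest cell of each plate and 1.92 to 5.73 when 1 plate was left out. Pgk1 had 191.9 and 11.5 CPM in imiquimod sums, against 158.7 and 120.1 CPM in vehicle sums, and Eno1 had 1105 and 556 CPM in imiquimod sums, against 854 and 435 CPM in vehicle sums. Both genes overlapped between treatments. Their log2 fold changes were -0.46 ± 1.99 and 0.37 ± 0.82, with edgeR quasi-likelihood adjusted p of 0.967 and 0.924, and that of Pgk1 was 0.21 with DESeq2's size factors and -0.67 ± 0.27 with limma.

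Pkm, the member with the most counts over all kept cells, had 2570 and 1226 CPM in imiquimod sums, against 1670 and 1466 CPM in vehicle sums. The vehicle plates lay between the imiquimod plates, with a log2 fold change of 0.28 ± 0.56 (edgeR quasi-likelihood adjusted p = 0.915). Without TMM scaling the Pkm sums were lower with imiquimod without overlap, at 1785 and 1153 CPM, against 1824 and 1873 CPM for vehicle. Ldha, which makes lactate, had 2502 and 1325 CPM in imiquimod sums, against 966 and 692 CPM in vehicle sums. Its plates did not overlap, with a log2 fold change of 1.21 ± 0.62 (edgeR quasi-likelihood adjusted p = 0.454; DESeq2 1.74 ± 0.68, adjusted p = 0.0426). On the mean log2(CPM + 1) per cell, which gives each cell the same weight, limma gave -0.14 ± 0.73 for Ldha and -0.30 ± 0.78 for Pkm.

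Of the 10 members, 6 had a positive and 4 a negative log2 fold change, with a median of 0.19, while over all 14462 genes 46.6% were positive and the median was -0.26. Without TMM scaling, the ratio of imiquimod to vehicle counts was below 1 for 2 of the positive members, Pkm (0.762) and Eno1 (0.845). It was above 1 for the other 4, Hk1, Pfkl, Gapdh and Ldha. With DESeq2's size factors 9 of the 10 members were positive with a median of 0.60, and the median of all genes was 0.11. With limma on the mean log2(CPM + 1), 2 members were positive with a median of -0.27, and the median of all genes was -0.12. In all, 7 of the 10 members had another sign in at least 1 of these fits. Plate levels scaled by TMM did not overlap and were higher with imiquimod for 3 members (Hk1, Gapdh and Ldha), against 13.7% of all genes. They were lower for 1 member (Slc2a1), against 31.1% of all genes.

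For Ldha and Pkm the share of cells with a count ran against the log2 fold change above, while for Aldoa both were lower with imiquimod. Ldha had a count in 31.6% and 31.8% of cells on the imiquimod plates, against 48.4% and 39.7% on the vehicle plates. Among cells with a count, Ldha had a median level of 1957 and 2427 CPM in imiquimod cells, by plate, against 733 and 678 CPM in vehicle cells. A smaller share of imiquimod cells thus had Ldha counts, at a higher median level, without overlap of plates in either measure. How many of all genes differ in this level was not computed. Of the cells with Ldha, 3 of 26 imiquimod and 14 of 53 vehicle cells were below 10 CPM. In cells at 10 CPM or more the medians were 2775 and 2497 CPM for imiquimod, against 1513 and 823 CPM for vehicle. For Pkm the median of cells with a count was lower with imiquimod, at 1780 and 1316 CPM, against 1968 and 1925 CPM. At a minimum of 10 CPM the Ldha shares were 26.3% and 29.5% on the imiquimod plates, against 35.5% and 29.3% on the vehicle plates, and overlapped. Aldoa was detected in 21.1% and 18.2% of cells on the imiquimod plates, against 41.9% and 43.1% on the vehicle plates, a mean difference of -22.9 percentage points. That difference was -11.5 points at a minimum of 10 CPM and -14.5 points with each cell thinned to 100000 counts. Pkm was detected in 39.5% and 43.2% of cells on the imiquimod plates, against 48.4% and 44.8% on the vehicle plates. At the same minimum the Pkm shares were 36.8% and 36.4% for imiquimod, against 38.7% and 34.5% for vehicle, and overlapped.

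Gapdh was detected in 26.3% and 29.5% of cells on the imiquimod plates, against 25.8% and 37.9% on the vehicle plates, and was the only member whose shares overlapped. Pgk1 was detected in 5.26% and 2.27% of imiquimod cells, against 11.3% and 17.2% of vehicle cells, and Hk2 in 2.63% and 9.09% of imiquimod cells, against 11.3% and 19.0% of vehicle cells. Hk1 shares differed little, at 13.2% and 13.6% on the imiquimod plates, against 16.1% and 13.8% on the vehicle plates. Eno1 was detected in 23.7% and 20.5% of imiquimod cells, against 27.4% and 25.9% of vehicle cells. The rarest 2 genes were also lower with imiquimod without overlap. Pfkl was detected in 2.63% and 4.55% of imiquimod cells, against 4.84% and 13.8% of vehicle cells, and Slc2a1 in 2.63% and 0% of imiquimod cells (0 of 44 allows up to 6.82%), against 3.23% and 10.3% of vehicle cells.

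In all, 9 of 10 members were detected in fewer imiquimod cells without overlap of plates, against 42.5% of all genes. None was detected in more, against 6.29% of all genes. With a minimum of 10 CPM, a count made after seeing the data, 3 of 10 members (Slc2a1, Aldoa and Pgk1) were lower without overlap, against 37.6% of all genes, and 0 were higher, against 6.6%. For the 9 members lower at 1 count, the exact two-sided permutation test on those shares gave p = 0.333, the smallest that 2 plates against 2 allow. After Benjamini-Hochberg adjustment over the 10 members it was 0.37. The shares of Gapdh overlapped, and its p was larger. Among genes detected in 20 to 50% of cells, 59.4% were lower without overlap and 4 of the 5 members were; the median difference was -9.88 percentage points for all such genes and -5.28 for the members. Among genes detected in 4 to 20% of cells, 44.7% were lower without overlap and 5 of 5 members were; the median difference was -3.61 points for all such genes and -5.73 for the members. The erythroid and mast cell markers also moved with the treatments, as given above. In sums the globin genes held 654 and 334 CPM for imiquimod, against 655 and 24.4 CPM for vehicle. Among the 109 kept cells with no other cell type's marker at 10 CPM or more, a setting chosen after seeing the data, Aldoa was detected in 0% and 0% of cells on the imiquimod plates (0 of 15 and 0 of 20 cells, which allow up to 20% and 15%), against 34.9% and 32.3% on the vehicle plates (43 and 31 cells). Their median genes were 709 and 700.5 on the imiquimod plates, against 916 and 1043 on the vehicle plates. In these cells the mean difference in share was -22.3 points for Pkm, -21.8 for Ldha and -12.7 for Eno1. Over all kept cells it was -5.28, -12.3 and -4.57 points, in the same order. The other members in these cells stood at -7.88 for Hk2, -5.55 for Slc2a1, -3.94 for Pgk1, -1.77 for Pfkl, 5.91 for Hk1 and 3.80 for Gapdh.

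**Figure D3:**
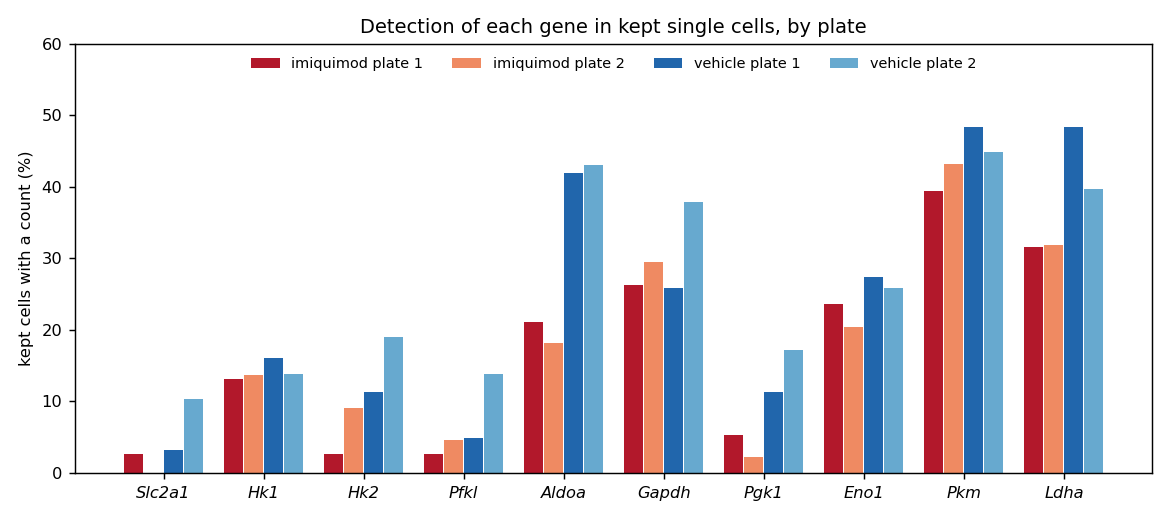
Share of kept cells with at least 1 count of each gene (%, axis from 0), with 1 bar per plate and imiquimod plates (red shades) left of vehicle plates (blue shades). Aldoa shows the widest gap in percentage points, with 21.1% and 18.2% for imiquimod and 41.9% and 43.1% for vehicle.

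Few cells held transcripts of the whole pathway. A kept cell had a median of 1 and 1 of the 10 members on the imiquimod plates, against 2 and 2 on the vehicle plates, and means of 1.68 and 1.73, against 2.39 and 2.66. No member was detected in 36.8% and 29.5% of imiquimod cells, against 27.4% and 22.4% of vehicle cells, and 4 or more in 15.8% and 15.9%, against 29.0% and 31.0%. No cell had all 10, and the highest number was 9. At 100000 counts drawn from each cell, which left out 3 imiquimod cells and 1 vehicle cell, the means were 1.46 and 1.25 for imiquimod, against 1.75 and 1.83 for vehicle, and all 4 medians were 1.

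The number of members followed the number of genes detected. The Spearman correlation of both was 0.61 and 0.57 over the 38 and 44 imiquimod cells and 0.69 and 0.69 over the 62 and 58 vehicle cells, each within 1 plate, where points share depth and capture. Cells were ordered by genes detected and divided into 3 groups of 68, 67 and 67 cells. Members per cell averaged 0.588 in the lowest group (501 to 860 genes), 1.90 in the middle group (861 to 1567) and 4.10 in the highest group (1607 to 8033). By plate these means were 0.444 and 0.571 for imiquimod, against 0.857 and 0.400 for vehicle, in the lowest group. They were 1.93 and 1.67 for imiquimod, against 2.11 and 1.88 for vehicle, in the middle group, and 4.83 and 3.17 for imiquimod, against 4.09 and 4.37 for vehicle, in the highest. The treatments overlapped in each group. In the highest group Aldoa was detected in 66.7% and 25.0% of cells on the imiquimod plates (6 and 12 cells), against 72.7% and 70.4% on the vehicle plates (22 and 27 cells). Ldha was detected there in all 6 cells of imiquimod plate 1 and 66.7% of those of imiquimod plate 2, against 72.7% and 59.3% of vehicle cells.

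Pairs of members were found in the same cell more often than their separate shares would give. Over 45 pairs, 766 cells with both genes were observed against 430.3 expected from the shares within each plate, a ratio of 1.78, and 41 pairs were above 1. The ratio was 2.05 and 2.00 on the imiquimod plates, against 1.63 and 1.77 on the vehicle plates. With the expectation also made within the 3 groups of genes detected, the ratio fell to 1.27, with 39 pairs above 1. Much of the excess thus went with cells that had more genes. For all pairs of genes detected in 4 to 50% of cells the ratios were 1.49 within plates and 1.119 within plates and groups. For the 5 members detected in 20 to 50% of cells they were 1.69 and 1.21, against 1.30 and 1.05 for all such genes.

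Aldoa and Eno1 shared 35 cells against 17.1 expected within plates, and 1.45 times the number expected within groups of genes detected. Eno1 and Ldha shared 39 against 19.9, or 1.41 times within groups. Pkm and Ldha, the most frequent genes and neighbours in the pathway, shared 53 cells against 35.6, but only 1.08 times the number expected within groups. Of the rarer genes, Pgk1 shared 18 of its 20 cells with Ldha and Hk2 shared 21 of its 23 with Aldoa. Hk1 and Pgk1 shared 11 cells against 2.91 expected, or 2.45 times within groups, in all 4 plates. Slc2a1 and Pfkl shared 0 cells against 0.951 expected, too few to read.

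**Figure D4:**
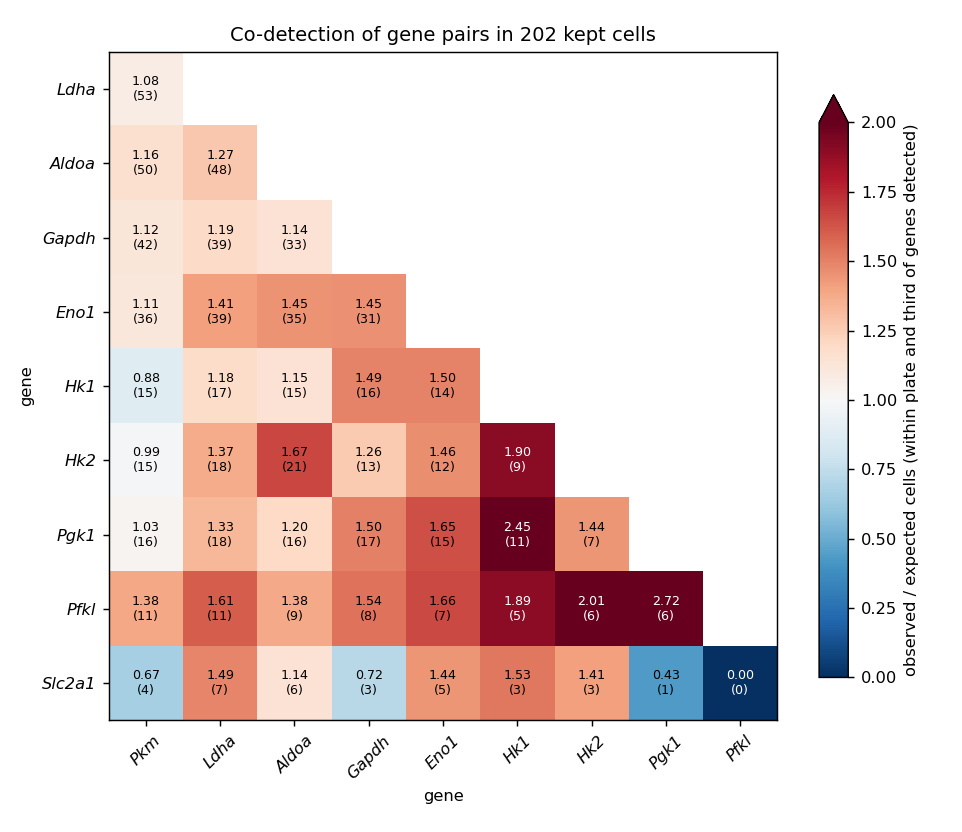
Ratio of observed to expected cells with both genes of each of 45 pairs over 202 kept cells, the expectation being made within plate and within the 3 groups of genes detected, with observed cells in brackets; colours stop at 2. Aldoa and Eno1 stand at 1.45 with 35 cells, and Pkm and Ldha at 1.08 with 53 cells.

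Levels of the commoner members were related to different degrees. After removal of plate and of log2 genes detected, Spearman correlations over 202 cells were 0.48 for Aldoa and Eno1, 0.41 for Ldha and Eno1 and 0.22 for Pkm and Ldha. Many of these points are cells at 0 for a gene, so that shared zeros enter the values. Where both genes had counts, the rank correlation of levels was 0.50 for Aldoa and Eno1 (35 cells) and 0.11 for Pkm and Ldha (53 cells). For Gapdh it was -0.43 with Eno1 (31 cells), -0.21 with Aldoa (33 cells), -0.02 with Ldha (39 cells) and 0.26 with Pkm (42 cells). The genes most like the members' summed CPM by the same adjusted measure, among 824 genes detected in at least 25% of cells with a median of -0.02, were Patl2 at 0.49, B2m at 0.44, Ubb and H3f3b at 0.35, Pfn1 at 0.34, Ubb-ps and Hspa8 at 0.33, Nfkbia and Rn18s-rs5 at 0.32 and Eno3 at 0.31. The gene span of Patl2 overlaps that of B2m, and the span of Eno3 that of Pfn1, in RefSeq annotation. No shared exon bases were found for these genes in the basic GENCODE M21 annotation. How reads in such overlaps were counted is not given in the sources used here, and their part in these values was not tested.

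Cells with a Foxp3 count had more members than cells without one, as a description with no test. The mean was 2.57 and 1.57 members in cells with Foxp3 on the imiquimod plates (14 and 14 cells), against 1.17 and 1.80 in cells without (24 and 30 cells). On the vehicle plates it was 3.08 and 4.78 in cells with Foxp3 (24 and 23 cells), against 1.95 and 1.26 in cells without (38 and 35 cells). The order was thus turned round on imiquimod plate 2. Over all plates the 75 cells with Foxp3 had a median of 1993 genes, against 945 in the 127 cells without. A like contrast was seen for another cell type's marker at 10 CPM or more, a split chosen after seeing the data. Cells with such a marker had means of 2.35 and 2.54 members on the imiquimod plates, against 0.667 and 0.75 without. On the vehicle plates these were 3.42 and 4.00, against 1.93 and 1.48. Median genes over all plates were 1652 with such a marker and 851 without.

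Wells of 10 cells showed most of the pathway at once. The labels give these 16 wells no treatment. They held 710021 to 9159522 counts and a median of 7.5 members, from 3 to 9, and none had all 10. Aldoa, Eno1 and Ldha were detected in 16 of 16 wells and Pkm in 15. Ldha ranged from 124.9 to 3315 CPM with a median of 904.8, Aldoa from 67.6 to 2871 with a median of 1576, Eno1 from 18.0 to 1891 with a median of 451, and Pkm from 0 to 2981 with a median of 866. At 1000 CPM or more stood 10 wells for Aldoa, 8 for Ldha, 6 for Pkm and 3 for Eno1.

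Detection in wells of 10 cells can be set against the number that 10 independent draws at the single-cell share would give. These shares are of the 202 kept cells of both treatments, while cells pooled in a well passed no such filter. A pooled cell also has only a part of its well's counts. Genes at 1 to 3 counts, as in 12 of the 23 cells with Hk2, could be missed there, so the numbers given may be too high. For Pgk1 13 wells were observed against 10.4, for Hk1 12 against 12.6, for Gapdh 13 against 15.6 and for Slc2a1 9 against 5.86. Pfkl was found in 5 against 8.20 and Hk2 in 3 against 11.2. Hk2 was also at most 9.06 CPM in these wells, while single cells reached 1585 CPM. The counts are of few wells, on 4 plates, and were not tested.

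Pooling 10 cells narrowed the spread. The coefficient of variation (SD over mean) of CPM was 0.84 over wells of 10 cells and 2.38 over single cells for Pkm, 0.777 and 2.39 for Ldha, 0.622 and 2.77 for Aldoa and 0.912 and 2.95 for Eno1, in the same order. For the sum of the 10 genes it was 0.609 over wells of 10 cells and 1.59 over single cells. Mean CPM per kb in wells of 10 cells was 869 for Aldoa, 784 for Ldha, 462 for Pkm and 279 for Eno1. The same 4 genes thus led, with Aldoa rather than Pkm at the top of the means.

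**Figure D5:**
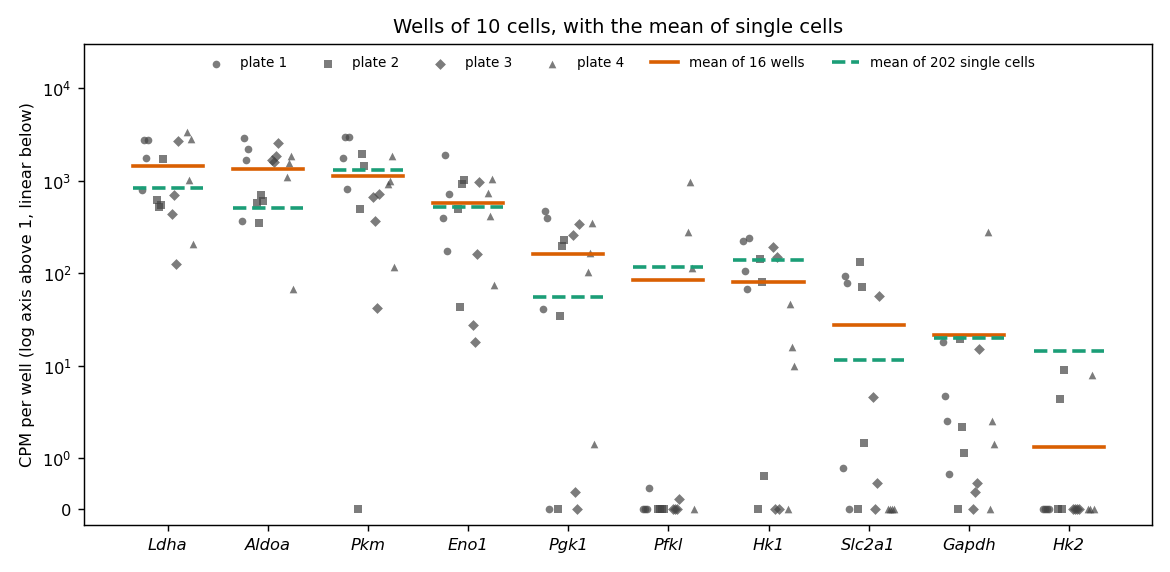
CPM of each gene in the 16 wells of 10 cells (1 point per well, shaped by plate), with their mean as a solid line and the mean of 202 single cells as a dashed line; the axis is logarithmic above 1 and linear below. Aldoa, Eno1 and Ldha are above 0 in all 16 wells, and Hk2 is at 0 in all but 3.

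Most wells with no cell had no count of these transcripts, but many held few counts of any gene. Of 20 such wells, 18 had no count of any member. The 20 wells held a median of 316 counts, against at least 10000 in each kept cell. Only 1 of them passed the filter set for kept cells, and it held 4 members. That well, on plate 2 with 1527760 counts, held 7574 counts of Ldha (4958 CPM), 1568 of Aldoa, 155 of Hk2 and 2 of Gapdh. A well on plate 3 held 1 count of Ldha. Pkm, Eno1, Pgk1, Pfkl, Hk1 and Slc2a1 had no count in any well without a cell. With all 20 wells taken alike, 0 of 20 leaves room for a share of up to 15% of wells. Wells with few counts could not show a gene, so the limit at the depth of kept cells is higher and was not computed. The shares of Hk1, Pgk1, Pfkl and Slc2a1 in kept cells do not pass even 15%. Whether those of Pkm and Eno1, 44.6% and 24.8%, lie above background cannot be read from these wells.

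The rest of glucose metabolism also gave no calls. A list of 45 other genes of glucose import, glycolysis, lactate transport, the pentose phosphate pathway and their regulators was in the table, and 39 were tested. Of these 23 were positive and 16 negative, with a median log2 fold change of 0.32, and 0 passed edgeR's quasi-likelihood test, with 5 at an unadjusted p under 0.05; DESeq2 called 4 higher and 5 lower, against 968 higher and 2772 lower of all 14462 genes. Plate levels did not overlap for 9 higher and 7 lower genes of the 39, against 13.7% and 31.1% of all genes. Detection shares were lower with imiquimod without overlap for 20 of the 39, against 42.5% of all genes, and higher for 3, against 6.29%.

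The 4 genes of that list with the highest level were Gpi1, Hif1a, Egln3 and Tpi1. Gpi1, the isomerase after hexokinase, had 1665 and 67.1 CPM in imiquimod sums, against 460 and 409 CPM in vehicle sums. Tpi1, triose phosphate isomerase, had 313 and 293 CPM in imiquimod sums, against 115.7 and 199.1 CPM in vehicle sums, without overlap. Tpi1 had a log2 fold change of 0.94 ± 1.37 (edgeR quasi-likelihood adjusted p = 0.862). Hif1a, the oxygen-regulated subunit of HIF, had 353 and 172 CPM in imiquimod sums, against 183.9 and 381 CPM in vehicle sums, and was detected in 13.2% and 15.9% of imiquimod cells, against 32.3% and 39.7% of vehicle cells. Egln3, a prolyl hydroxylase that marks HIF for degradation, had 642 and 153.9 CPM in imiquimod sums, against 114.0 and 64.9 CPM in vehicle sums. Its plates did not overlap, with a log2 fold change of 2.15 ± 1.44 (edgeR quasi-likelihood adjusted p = 0.598; DESeq2 adjusted p = 0.0439).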

How the data were processed

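Plate-based RNA sequencing of sorted skin Treg cells was deposited by the authors as 1 matrix of read counts per gene symbol and well. Per the labels' protocols, oligo dT primed the cDNA, with 24 cycles of cDNA and 12 of library amplification. Trimmomatic 0.39, STAR 2.7.3a, SAMtools 1.12 and mm39 are named in the submitters' processing notes; the counting tool, strand setting and annotation are not given in the sources used here.

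Treatments and plates came from the labels. Counts of kept single cells (at least 500 genes and 10000 counts) were summed per plate (67319087 and 99183184 for imiquimod, 90448592 and 99396458 for vehicle). They were filtered with filterByExpr, TMM scaled and tested with edgeR 4.0.16's quasi-likelihood test with Benjamini-Hochberg adjustment at 0.05. The fit was also run on simulated counts. Its recovery of changed genes is not reported here, so 0 calls do not show that genes were unchanged. The TMM factors were 0.701 and 0.958 for the imiquimod plates and 1.12 and 1.33 for the vehicle plates. The common dispersion was 2.71. Detection shares were compared over plates by exact permutation. DESeq2 1.42.0, limma 3.58.1 on mean log2(CPM + 1), other filters and thinning to 100000 counts were alternatives. Wells were filled by a sorter, and doublets were not called. Kept cells reached 8033 genes, against a median of 6623.5 in wells of 10 cells. Whether any kept well held more than 1 cell was not tested.

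Named genes were the 10 members, the other glucose genes past the threshold or else the 4 of highest level, and the 10 genes of highest adjusted correlation with the members' sum. Symbols of Rps and Rpl genes, those beginning with mt- or Gm and those ending in Rik were not ranked. Members and lists were chosen with earlier results of these data known. Transcript lengths and shared windows came from GENCODE M21 of GRCm38.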

Additional observations from a re-analysis of the deposited data

Results flagged for a closer look

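Members had counts in data that no treatment comparison used. A well labelled as having no cell, on plate 2, held 7574 counts of Ldha, 1568 of Aldoa and 155 of Hk2, each above the 3 counts that a count of 0 allows, and passed the filter set for single cells. The cause was not tested.

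Of the 146 single-cell wells that did not pass the filter, 28 had a count of at least 1 member (19.2%), while 2 of the 20 wells without a cell did. The former held a median of 174974 counts and the latter of 316, so the shares are not at like depth. Pkm was detected in 9 of the 146 wells, Ldha in 7, Eno1 in 5 and Hk2 in 4, and 1 well reached 43596 CPM of Hk2.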

How the results depend on the processing

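The number of genes called was 9 without an expression filter and 3740 with DESeq2, and 0 to 794 when 1 plate was left out (215 without imiquimod plate 1 and 794 without imiquimod plate 2); the lone plate is then assumed to vary like the others. With DESeq2, 3 members and 9 other glucose genes were called. Every other setting called 0 genes, and members called were 0 in all settings but DESeq2.

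Log2 fold changes changed sign under some settings, and the cause was not tested. With DESeq2's size factors and with DESeq2 itself, Hk2 was 0.065, Aldoa 0.37 and Pgk1 0.21. Thinned cells gave Pfkl -1.55, Eno1 -0.28 and Pkm -0.0091. Limma gave Pfkl -0.40, Eno1 -0.33, Pkm -0.30 and Ldha -0.14. Without the highest cell per plate, Hk2 was 0.33 and Pfkl -3.01. Pfkl was -0.060 over every single-cell well and Aldoa 0.019 in cells with at least 1000 genes. Leaving out 1 plate gave -1.36 to 4.83 for Hk2, -11.36 to 1.20 for Pfkl, -0.57 to 0.33 for Aldoa, -3.51 to 0.56 for Pgk1, -0.12 to 0.87 for Eno1 and -0.25 to 0.82 for Pkm, and, with no change of sign, 2.68 to 4.28 for Hk1, 1.92 to 5.73 for Gapdh and 0.78 to 1.70 for Ldha.

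Differences in detection (percentage points) changed sign for Gapdh at a minimum of 10 CPM (2.59), for Pkm at that minimum (0.0067) and when thinned (0.45), for Eno1 in cells with at least 1000 genes (1.13), and, in cells without another cell type's marker, for Hk1 (5.91) and Gapdh (3.80). Leaving out 1 plate gave -10 to 2.12 for Gapdh. The number of members lower without overlap was 3 at 10 CPM and 9 at 1 count. The difference in median members per cell, -1 in kept cells, was 0 when thinned and 0 at 10 CPM. The co-detection ratio was 1.37 with at least 1000 genes, 2.07 when thinned, 2.33 at 10 CPM and 1.27 within groups of genes detected.

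No paired analysis was possible because well numbers only name wells and no label pairs an imiquimod plate with a vehicle plate. The 2 plates a treatment, a common dispersion of 2.71 and the few cells behind the rarer genes limit the precision. The filters on cells with a T or Treg marker and without another cell type's marker were chosen after seeing the data.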
